A study of Mus musculus with 9 samples.

Results

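Transcripts of 39 genes that drive or mark the cell division cycle were followed in newborn mouse epidermis. The genes were listed by name, and each was read through a probe set whose platform annotation gives it as the only gene. Where several probe sets qualified, the one with the highest mean over all 9 arrays was used. This gave values for 38 of the 39 genes, among 18193 genes measured in the same way. Ccnb1, which encodes cyclin B1, was not analysed here.

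Trunk epidermis came from pups killed directly after birth, the offspring of heterozygous Alox12b knockout parents. The labels give 4 samples as Alox12b-KO and 5 as wildtype, the wildtype ones of strain 129S6. All samples shared the short bath in hot buffered saline that frees the epidermis. Alox12b encodes the 12R-lipoxygenase needed for the skin barrier, and the labels do not say how the knockout was made, nor whether an array holds 1 pup or several. Each sample was read on an Affymetrix mouse genome array in log2 units, and with so few arrays every value is imprecise. The p-values measure the spread between samples that the labels call biological replicates.

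Cells commit to division in G1, where D and E cyclins with their kinases release E2F factors, and the CDK inhibitors p21 and p27 hold this step back. Minichromosome maintenance proteins are then loaded at origins and open the DNA for replication, while ribonucleotide reductase and thymidylate synthase supply nucleotides. Cyclins A and B with Cdk1, the Aurora and Polo kinases and the anaphase-promoting complex then carry the cell through mitosis. In newborn epidermis dividing keratinocytes lie mainly in the basal layer and in the growing hair follicles, and cells leave the cycle as they move upwards. In whole epidermis a lower value can mean fewer dividing cells or less transcript in each cell, and these cannot be told apart here.

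Members of the pathway are known to share promoter elements. Mitotic genes carry CCAAT boxes, bound by NF-Y, and a cell cycle homology region (CHR), while replication genes carry E2F sites. The stretches below show these elements in the 180 bases before the start of transcription for the member that passed the test, for other mitotic genes and for genes of the replicative helicase. They come from RefSeq on build GRCm38.p6 and read 5′ to 3′ on the gene's own strand. Capitals mark matches on either strand to CCAAT, to the CHR letters TTTGAA or TTCGAA, and to the E2F letters TTTCCCGC, TTTGGCGC, TTTGCCGC or TTTCGCGC.
Hmgb2, chr8:57511663-57511842, plus strand: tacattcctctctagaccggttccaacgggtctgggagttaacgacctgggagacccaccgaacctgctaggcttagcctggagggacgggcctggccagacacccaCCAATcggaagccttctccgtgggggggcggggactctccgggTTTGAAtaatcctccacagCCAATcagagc
Cdk1, chr10:69352913-69353092, minus strand: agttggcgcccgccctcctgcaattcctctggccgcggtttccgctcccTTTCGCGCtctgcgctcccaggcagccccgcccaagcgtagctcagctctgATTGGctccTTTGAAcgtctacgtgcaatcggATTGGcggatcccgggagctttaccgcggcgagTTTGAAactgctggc
Ube2c, chr2:164769749-164769928, plus strand: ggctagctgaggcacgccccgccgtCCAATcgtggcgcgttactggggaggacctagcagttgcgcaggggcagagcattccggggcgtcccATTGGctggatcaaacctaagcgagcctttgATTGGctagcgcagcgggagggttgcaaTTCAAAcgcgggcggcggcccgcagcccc
Mki67, chr7:135716380-135716559, minus strand: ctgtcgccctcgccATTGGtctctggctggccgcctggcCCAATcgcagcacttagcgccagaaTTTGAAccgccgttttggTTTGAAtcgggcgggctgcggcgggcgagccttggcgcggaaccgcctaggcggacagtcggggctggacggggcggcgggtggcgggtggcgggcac
Mcm5, chr8:75109329-75109508, plus strand: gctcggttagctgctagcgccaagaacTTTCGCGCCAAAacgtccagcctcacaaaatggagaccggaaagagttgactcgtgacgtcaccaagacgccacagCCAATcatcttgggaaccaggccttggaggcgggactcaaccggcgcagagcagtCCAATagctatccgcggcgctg
Mcm6, chr1:128359706-128359885, minus strand: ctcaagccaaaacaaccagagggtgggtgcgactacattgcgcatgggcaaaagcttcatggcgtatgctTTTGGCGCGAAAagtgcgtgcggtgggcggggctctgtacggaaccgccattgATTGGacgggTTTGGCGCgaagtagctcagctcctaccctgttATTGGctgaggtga
Mcm7, chr5:138171884-138172063, minus strand: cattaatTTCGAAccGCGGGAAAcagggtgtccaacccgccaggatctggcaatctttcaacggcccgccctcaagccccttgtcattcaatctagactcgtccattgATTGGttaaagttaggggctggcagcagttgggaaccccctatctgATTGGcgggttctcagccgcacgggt

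The stretch of Hmgb2 holds 2 CCAAT matches, at positions -73 and -11 counted from the first transcribed base, around a CHR match at -30. Cdk1, the mitotic kinase, holds all 3 kinds, with CHR matches at -71 and -15. Mki67 has its 2 CHR matches farther upstream, at -116 and -98. In Mcm5 and Mcm6 E2F matches on opposite strands overlap, so that 1 run of capitals holds both. Mcm7 holds a CHR match at -173 and an E2F match at -165, and RefSeq lists a second start for this gene, whose window holds only a CCAAT match.

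Over the full window of 300 bases, 250 before and 50 after the start, 31 of the 39 genes had a promoter sequence. CHR letters were present in 8 of 10 promoters of mitotic cyclins, kinases and their control genes, and in 6 of 8 promoters of chromosome, centromere and spindle genes. Of replication genes 2 of 10 held them, and of G1 cyclins and CDK inhibitors 0 of 3. Among all 27025 genes with a promoter the share was 21.7%, and among the 14452 of these that were tested on the arrays it was 17.5%. E2F letters showed the opposite pattern, with 5 of 10 replication promoters and 1 of 10 mitotic promoters. Their share was 2.60% of all genes and 3.81% of those tested on the arrays. CCAAT letters were common everywhere, in 25 of the 31 promoters and in 41.1% of all genes. Other mitosis genes outside the 39 held CHR letters in 45 of 66 promoters and E2F letters in 7. Other replication genes held E2F letters in 12 of 37 and CHR letters in 7. The wider list of G1 and S phase control genes held both kinds often, each in 9 of 22 promoters. A match shows only that these letters are present.

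The comparison asked whether loss of Alox12b came with a different level of these transcripts at birth. Most did not separate the groups. Hmgb2, a DNA-bending chromatin protein abundant in dividing cells, fell by 0.57 on the log2 scale with an adjusted p of 0.0334 in limma, and it was the 1 member of 38 that passed 0.05. Over all genes 1.24% passed, with 0.731% lower and 0.511% higher in knockout, so 1 of 38 is close to the background. An unadjusted p under 0.05 was found for 6 members, or 15.8%, against 17.8% of all genes. The groups did not overlap for 3 members, or 7.89%, against 8.28% of all genes.

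Of the 38 differences 23 were negative, with a median of -0.10 against 0.02 over all genes. The median was -0.16 for replication genes, 0.02 for mitotic regulators, -0.15 for chromosome and spindle genes and 0.09 for G1 cyclins and CDK inhibitors. Many members were dim, and 22 of 38 had a mean under 5 over all arrays, where a probe set may read little above background. Among the 16 brighter members 11 differences were negative, or 68.8%, with a median of -0.26, against 65.5% and a median of -0.12 for all genes at that level. Among the 22 dim members 12 were negative, or 54.5%, with a median of -0.04, against 34.1% and a median of 0.08 for all dim genes.

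**Figure D1:**
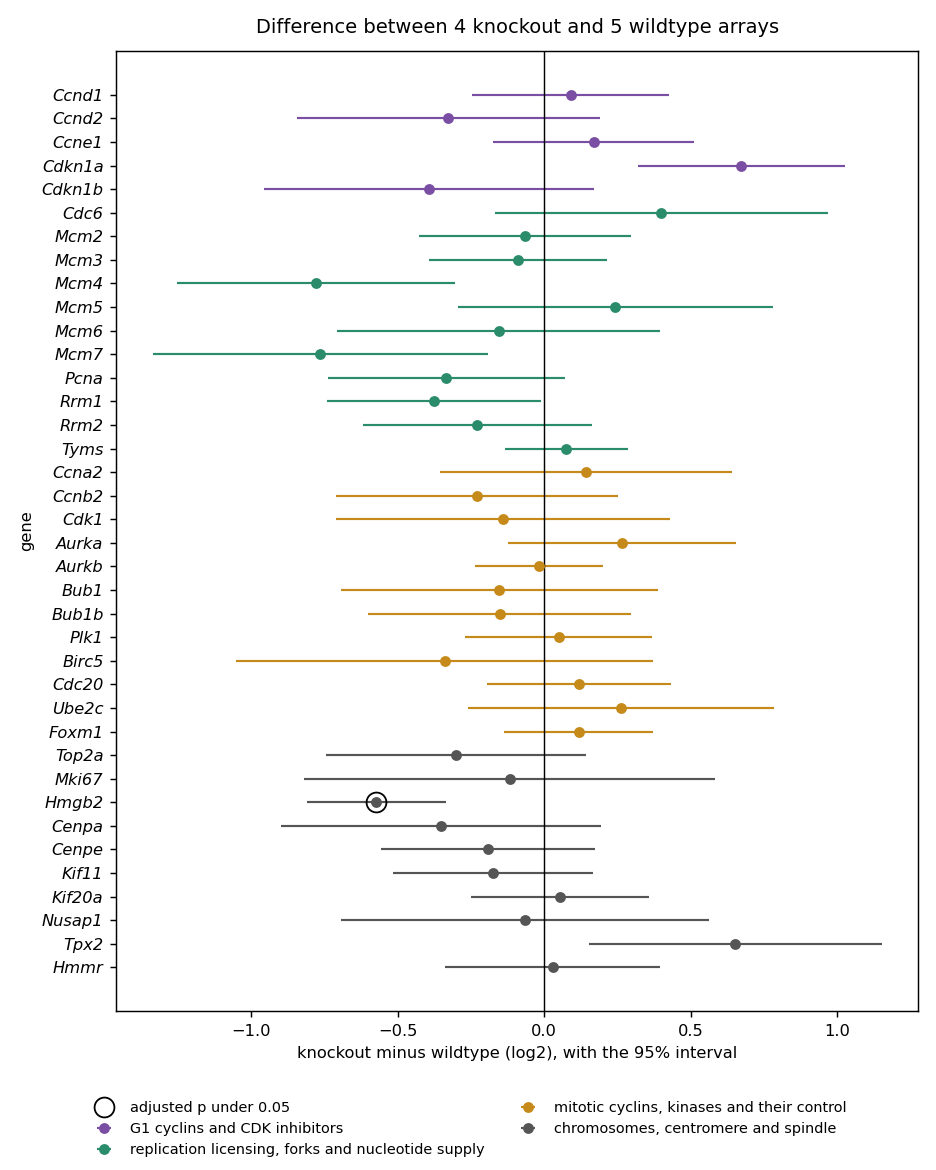
Knockout minus wildtype for each of 38 genes in log2 units, as limma estimates with 95% intervals that are not adjusted for the number of genes, coloured by role. Most intervals cross 0, the ringed gene Hmgb2 at -0.57 is the one past an adjusted p of 0.05, and Cdkn1a, Mcm4, Mcm7, Rrm1 and Tpx2 have intervals off 0 without passing.

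Whole-array features bear on these values. Array medians lay between 3.14 and 3.31. Xist, the RNA of the inactive X chromosome, read 9.99 to 10.20 on the knockout arrays and 10.95 on wildtype array 4, against 3.23 to 4.32 on the other wildtype arrays, so genotype and sex overlapped almost completely. With the Xist level in the model 9 genes passed in limma, none of them a member, and 6 members had an unadjusted p under 0.05. Alox12b itself read 10.84 to 11.60 in knockout and 10.56 to 11.32 in wildtype, and the position of its probes was not used here, so it checks nothing about the labels.

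Among the G1 genes the CDK inhibitor Cdkn1a, which encodes p21, showed the clearest separation. Its log2 level was 11.37, 11.52, 11.42 and 11.39 on knockout arrays 1 to 4 and 10.66, 10.61, 10.63, 10.55 and 11.32 on wildtype arrays 1 to 5. Every knockout array lay above every wildtype array, but wildtype array 5 came close to the knockout level while the other 4 wildtype arrays lay far below. The means were 11.43 ± 0.06 (SD, n = 4) and 10.75 ± 0.32 (SD, n = 5), a difference of 0.67 with an SE of 0.16 and an interval of 0.32 to 1.03. The limma adjusted p was 0.0759, above the threshold. Without wildtype array 5 the difference was 0.81 with a limma adjusted p of 0.00477, so the call depends on that array. Wildtype array 4 had the lowest Cdkn1a of all arrays. With the Xist level in the model Cdkn1a did not pass, and genotype and sex cannot be told apart here.

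A second, dimmer probe set of Cdkn1a differed by 0.58 in the same direction. There knockout arrays 1 and 2 read 9.47 and 9.36 and arrays 3 and 4 both 8.90, against at most 8.85 in wildtype. The groups thus kept their order on both probe sets.

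The other CDK inhibitor of the list, Cdkn1b, which encodes p27, did not follow Cdkn1a. It read 6.67, 6.94, 6.31 and 6.46 on the knockout arrays and 6.79, 7.11, 6.45, 6.74 and 7.84 on the wildtype arrays. Wildtype array 5 was the highest of all arrays, and the rest of the groups overlapped. The difference was -0.39 with an interval of -0.96 to 0.17 and a limma adjusted p of 0.440.

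Ccnd2, encoding cyclin D2, read 7.49, 7.03, 6.42 and 7.40 in knockout and 7.46, 7.53, 6.85, 7.61 and 7.61 in wildtype. Its low values sat on knockout array 3 and wildtype array 3, so the groups overlapped. The difference was -0.33 (interval -0.84 to 0.19), and all 7 probe sets of this gene gave a negative difference, from -0.64 to -0.08. Cyclin D1 (Ccnd1) differed by 0.09 with an interval of -0.24 to 0.43, and cyclin E1 (Ccne1) by 0.17 with an interval of -0.18 to 0.51. In limma 0 of these 5 genes passed, and 1 had an unadjusted p under 0.05, or 20% against 17.8% of all genes.

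**Figure D2:**
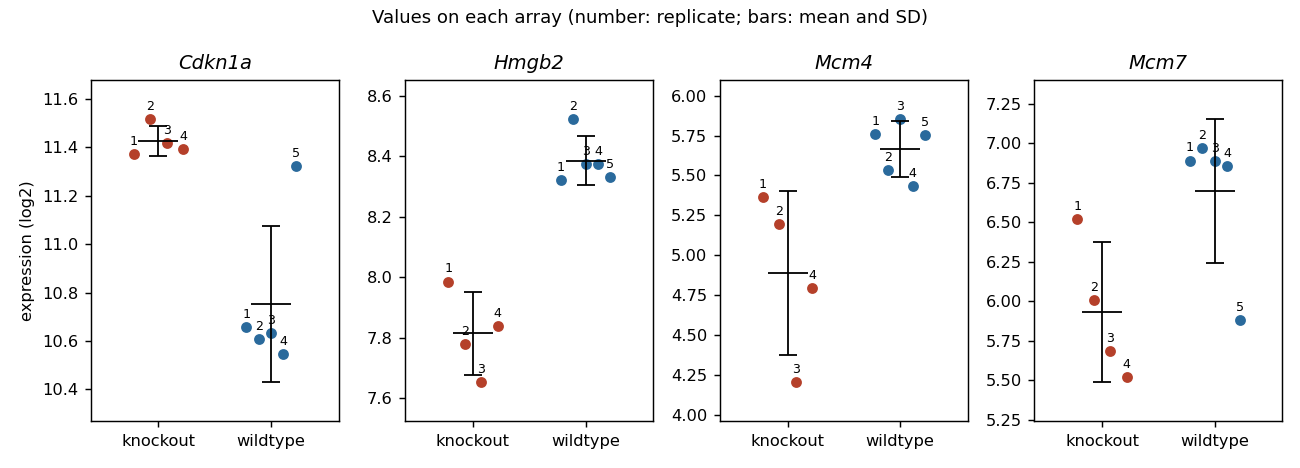
Log2 values of Cdkn1a, Hmgb2, Mcm4 and Mcm7 on each array, with replicate numbers beside the points and the mean and SD of 4 knockout and 5 wildtype arrays as bars. Axes differ between panels and do not start at 0. Wildtype array 5 lies apart from the other wildtype arrays for Cdkn1a, at 11.32, and for Mcm7, at 5.88, but not for Hmgb2 or Mcm4.

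Of the 11 differences of replication genes 8 were negative, or 72.7%, against 46.5% of all genes. That share depends on level, at 65.5% for genes with a mean of at least 5 and 34.1% for dimmer ones. Of the 11 genes, 6 had a mean of at least 5. Among 45 other replication genes, 34 of them with a mean under 5, 46.7% were negative. In limma 0 of the 11 passed, and 3 had an unadjusted p under 0.05, or 27.3% against 17.8% of all genes. All 3 were lower, and over all genes 1944 were lower and 1288 higher at that level. The largest differences were in subunits of the Mcm2 to Mcm7 helicase. Mcm4 read 5.37, 5.19, 4.21 and 4.79 on the knockout arrays and 5.76, 5.54, 5.85, 5.44 and 5.75 on the wildtype arrays. All knockout values lay below all wildtype values, knockout array 3 lowest and knockout array 1 close to the wildtype range. The difference was -0.78 with an SE of 0.21, an interval of -1.25 to -0.30 and a limma adjusted p of 0.113.

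Mcm7 read 6.52, 6.01, 5.68 and 5.52 in knockout and 6.89, 6.97, 6.89, 6.86 and 5.88 in wildtype. Wildtype array 5 fell inside the knockout range, and the other 4 wildtype arrays lay above it. The difference was -0.76 with an interval of -1.33 to -0.19 and a limma adjusted p of 0.180. Without wildtype array 5 it was -0.97 with a limma adjusted p of 0.0420. All 4 probe sets of Mcm7 were lower in knockout, by -0.43 to -0.76, and both of Mcm4, by -0.57 and -0.78.

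The remaining helicase subunits showed smaller differences with intervals across 0. Mcm6 differed by -0.16 (-0.71 to 0.39), Mcm3 by -0.09 (-0.39 to 0.22), Mcm2 by -0.06 (-0.43 to 0.30) and Mcm5 by 0.24 (-0.29 to 0.78). Differences between subunits were not tested. Cdc6, which loads the helicase at origins, read 3.93, 4.46, 3.65 and 3.87 in knockout and 4.08, 3.87, 3.43, 3.74 and 2.77 in wildtype. Wildtype array 5 was the lowest of all, and the difference of 0.40 (-0.17 to 0.97) was 0.20 without that array.

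Pcna, the sliding clamp of DNA polymerase, read 8.01, 7.83, 7.28 and 7.34 in knockout and 7.93, 7.80, 8.36, 7.88 and 7.77 in wildtype. Knockout arrays 3 and 4 were low, whereas arrays 1 and 2 lay in the wildtype range, and the difference was -0.33 (-0.74 to 0.07). Rrm1 and Rrm2, the subunits of ribonucleotide reductase, differed by -0.38 (-0.74 to -0.01) and -0.23 (-0.62 to 0.16). Tyms, thymidylate synthase, read between 2.32 and 2.54 on all arrays and differed by 0.08 (-0.14 to 0.29).

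The mean of the replication genes differed between knockout arrays, though not every gene followed it. It was 5.37 and 5.16 on knockout arrays 1 and 2, and 4.84 and 4.89 on knockout arrays 3 and 4. On wildtype arrays 1 to 4 it was 5.25 to 5.37, and on wildtype array 5 it was 4.97. Mcm2 went the other way, with 5.05 and 4.66 on knockout arrays 1 and 2 and 5.34 and 5.20 on arrays 3 and 4. Knockout arrays 3 and 4 each held the lowest value of 3 of the 11 genes. Among all genes with a mean of at least 5 these arrays held the lowest value of 20.2% and 34.5%. The groups of arrays named here were seen in the data and are not groups of the study.

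Genes that run mitosis showed no difference between the groups beyond the spread. In limma 0 of the 12 measured cyclin, kinase and control genes passed, 0 had an unadjusted p under 0.05, and 6 differences were negative. Birc5, encoding survivin of the chromosomal passenger complex, read 4.37, 3.86, 3.84 and 3.10 in knockout and 4.13, 4.48, 4.51, 4.46 and 3.08 in wildtype. Its lowest values lay on knockout array 4 and wildtype array 5, so both groups spanned the same range, with a difference of -0.34 (-1.05 to 0.37). Ube2c, the ubiquitin-conjugating enzyme of the anaphase-promoting complex, read 5.38, 4.99, 5.13 and 5.13 in knockout and 4.91, 4.86, 5.47, 5.17 and 4.08 in wildtype. Its difference of 0.26 (-0.26 to 0.78) was 0.06 without wildtype array 5.

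Aurka, the Aurora kinase of the spindle poles, read 2.84, 2.75, 3.35 and 3.33 in knockout and 2.77, 3.15, 2.62, 2.94 and 2.54 in wildtype, with a difference of 0.27 (-0.12 to 0.65). Cdc20, the activator of the anaphase-promoting complex, read 6.50, 6.78, 6.81 and 6.88 against 6.91, 6.51, 6.68, 6.72 and 6.30. The groups overlapped for both, and Cdc20 differed by 0.12 (-0.20 to 0.43). Foxm1, the transcription factor of the mitotic programme, differed by 0.12 (-0.14 to 0.37), and Plk1, the Polo kinase, by 0.05 (-0.27 to 0.37).

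The master kinase Cdk1 read 4.58, 4.02, 4.21 and 4.47 in knockout and 4.83, 4.47, 4.59, 4.89 and 3.52 in wildtype. Wildtype array 5 was the lowest of all 9 arrays, and the difference was -0.14 (-0.71 to 0.43). Cyclin A2 (Ccna2) differed by 0.14 (-0.36 to 0.64) and cyclin B2 (Ccnb2) by -0.23 (-0.71 to 0.25). The other probe set of Ccna2 had the opposite sign, at -0.32 (-0.86 to 0.22). The spindle checkpoint kinases Bub1 and Bub1b both differed by -0.15, with intervals of -0.69 to 0.39 and -0.60 to 0.30. Aurkb, the kinase of the passenger complex, differed by -0.02 (-0.24 to 0.20), but it read only 2.29 to 2.49 on all arrays.

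Chromosome, centromere and spindle genes included the member that passed. Hmgb2 read 7.99, 7.78, 7.65 and 7.84 on the knockout arrays and 8.32, 8.52, 8.37, 8.37 and 8.33 on the wildtype arrays. Every knockout array lay below every wildtype array, and wildtype array 5 did not stand apart. With the Xist level in the model the limma adjusted p was 0.517, and genotype and sex cannot be told apart here. The means were 7.81 ± 0.14 (SD, n = 4) and 8.39 ± 0.08 (SD, n = 5), which is 1.49-fold lower, with an SE of 0.11 and an interval of -0.81 to -0.34. Its other probe sets differed by -0.35 and -0.25 without passing. The brightest 2 probe sets of Hmgb2 are of the less specific kind, whose names mark that they may match several transcripts. The dimmest, with means of 2.87 in knockout and 3.12 in wildtype, stood for the gene in the fit without that kind. The call was made in 5 of 17 other fits and lost in the rest, among them those without any 1 of knockout arrays 2 to 4 or wildtype arrays 1 to 4, where the difference stayed between -0.25 and -0.59 and the limma adjusted p ran from 0.0587 to 0.517.

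Tpx2, which nucleates spindle microtubules, read 3.89, 3.93, 4.74 and 4.65 in knockout and 3.89, 4.03, 3.66, 3.45 and 3.22 in wildtype. Its higher values were on knockout arrays 3 and 4, and arrays 1 and 2 lay inside the wildtype range. The difference was 0.65 (0.15 to 1.15) with a limma adjusted p of 0.188. A second probe set differed by 0.40 and the dimmest pair by -0.03 and 0.10, so the probe sets did not read the same size.

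Cenpa, the centromeric histone, read 3.39, 3.53, 3.39 and 3.33 in knockout and 3.91, 4.20, 3.69, 4.17 and 2.83 in wildtype. All knockout values lay between wildtype array 5 and the other 4 wildtype arrays. The difference was -0.35 (-0.90 to 0.19), and without wildtype array 5 it was -0.58 with a limma adjusted p of 0.0720. Top2a, the topoisomerase that untangles replicated DNA, differed by -0.30 (-0.75 to 0.14).

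Mki67, the common proliferation marker, read 7.36, 6.98, 7.07 and 6.72 in knockout and 7.66, 7.38, 6.85, 7.79 and 6.06 in wildtype. Wildtype arrays 4 and 5 were the highest and the lowest of all arrays, and the knockout values lay between them. The difference was -0.12 (-0.82 to 0.58), and without wildtype array 5 it was -0.39 with a limma adjusted p of 0.412. The interval lies widely on both sides of 0, so no change in Mki67 was detectable with these arrays. The spindle motors Kif11 and Kif20a differed by -0.17 (-0.51 to 0.17) and 0.05 (-0.25 to 0.36). The kinetochore motor Cenpe differed by -0.19 (-0.56 to 0.17), and the spindle proteins Nusap1 and Hmmr by -0.07 (-0.69 to 0.56) and 0.03 (-0.34 to 0.40).

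**Figure D3:**
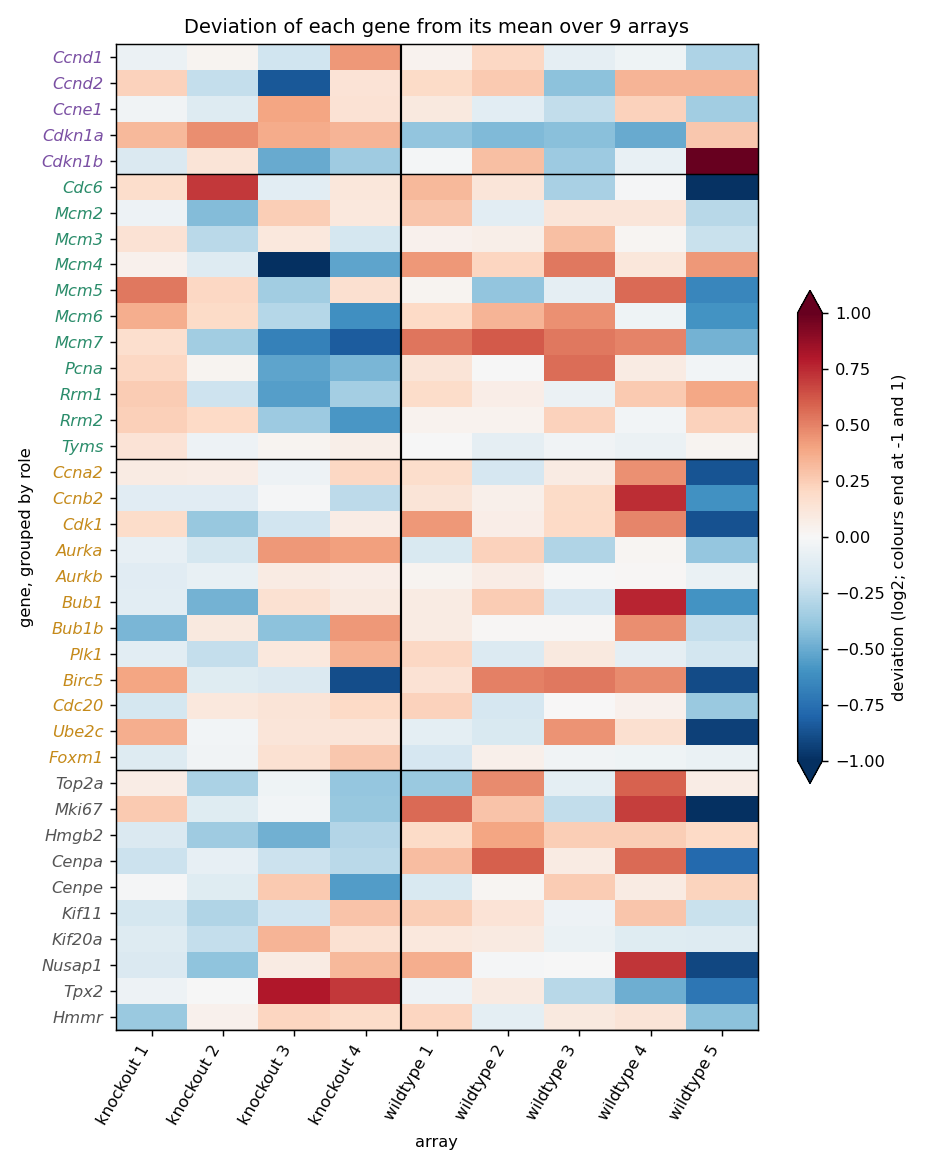
Deviation of each of 38 genes from its mean over 9 arrays in log2 units, with 4 knockout arrays left of the line and 5 wildtype arrays right of it, and genes grouped by role. Wildtype array 5 is blue for most mitotic genes, and knockout arrays 3 and 4 are blue for several replication genes. Rows with 1 colour on all 4 knockout arrays include those of Cdkn1a, Hmgb2 and Cenpa.

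Wildtype array 5 was low for most mitotic genes. The median residual SD of the 38 members was 0.32, against 0.24 over all genes. On this array 30 of the 38 members lay below the mean of wildtype arrays 1 to 4, by a median of -0.36, against 54.8% of all genes and a median of -0.04. All 12 mitotic cyclin, kinase and control genes did so, with a median of -0.61, and 9 of 10 chromosome and spindle genes, with a median of -0.44. The largest deviations were -1.37 for Mki67, -1.31 for Birc5, -1.17 for Cdk1 and -1.17 for Nusap1. It held the lowest of 9 values for 17 of 38 members, or 44.7%, against 21.9% of all genes. Other mitosis genes outside the list were lower there in 54 of 76 cases, with a median of -0.20, and other replication genes in 22 of 45, with a median of 0.00. These counts were chosen after the values were seen and describe 1 array.

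Markers of several cell types were low on that array. The basal list did not move as one on it. Krt5 and Krt14 read 7.47 and 7.36, against 8.41 to 9.76 and 8.58 to 9.65 on the other arrays, while the basal keratin Krt15 read 9.43, within its range of 8.08 to 10.64 on the others. Trp63, a basal transcription factor, was highest there, at 8.65. The mean of 12 Langerhans cell and macrophage markers was 4.29 on it and 5.22 to 6.46 on the other arrays. For 7 T cell markers it was 3.38 against 3.88 to 4.63, and for 12 melanocyte markers 3.22 against 4.02 to 4.58. It was also the lowest array for 9 skeletal muscle markers, at 3.89 against 4.43 to 6.71, and for 11 fibroblast markers, at 5.06 against 5.28 to 8.47. Not every list was low there. The mean of 8 endothelial markers was 4.18 on it, the highest of all arrays, against 3.57 to 4.02 on the others. For 22 hair follicle and matrix markers it was 5.21 against 4.56 to 5.35, and for 8 adipocyte markers 4.98 against 3.56 to 6.65. The part of these cells in the low mitotic values was not tested. Without this array 3 of the 38 members passed in limma, Cdkn1a as higher and Hmgb2 and Mcm7 as lower, against 1.54% of all genes. The median difference of the members was then -0.17.

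Means of some marker lists also differed between the genotypes. The mean of 12 basal keratinocyte markers was 5.85 to 6.15 on the knockout arrays. On the wildtype arrays it was 6.21 to 6.91, so the groups did not overlap. In limma 0 of the 12 passed, and 7 had an unadjusted p under 0.05, or 58.3% against 17.8% of all genes. Of these 7, 6 were lower and 1 was higher. Over the list 8 differences were negative, or 66.7%, against 65.5% of all genes with a mean of at least 5, and 9 of the 12 had such a mean. For 8 adipocyte markers the means were 3.56 to 4.02 in knockout and 3.64 to 6.65 in wildtype. Of these, 7 differences were negative, or 87.5% against 46.5% of all genes. The list median was -1.25, the largest in size of the marker lists. In limma 0 of the 8 passed, with 3 at an unadjusted p under 0.05, or 37.5% against 17.8% of all genes. The suprabasal markers, 13 in number, had means of 10.83 to 11.54 and 10.94 to 11.40. In limma 0 of them passed, and 5, or 38.5%, had an unadjusted p under 0.05, 3 higher and 2 lower. For 22 markers of hair follicle and matrix, which also hold dividing cells, the means were 4.56 to 5.20 and 4.98 to 5.35. Of these 22, 0 passed in limma, and 7, or 31.8%, had an unadjusted p under 0.05, 6 lower and 1 higher. The mean of 11 fibroblast markers was 8.47 on knockout array 4 and 5.06 to 7.14 on the others, and that of 8 smooth muscle markers was 5.84 on it and 3.36 to 3.80 on the others. The part of these differences in the values of Hmgb2, Cdkn1a and the Mcm genes was not tested.

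**Figure D4:**
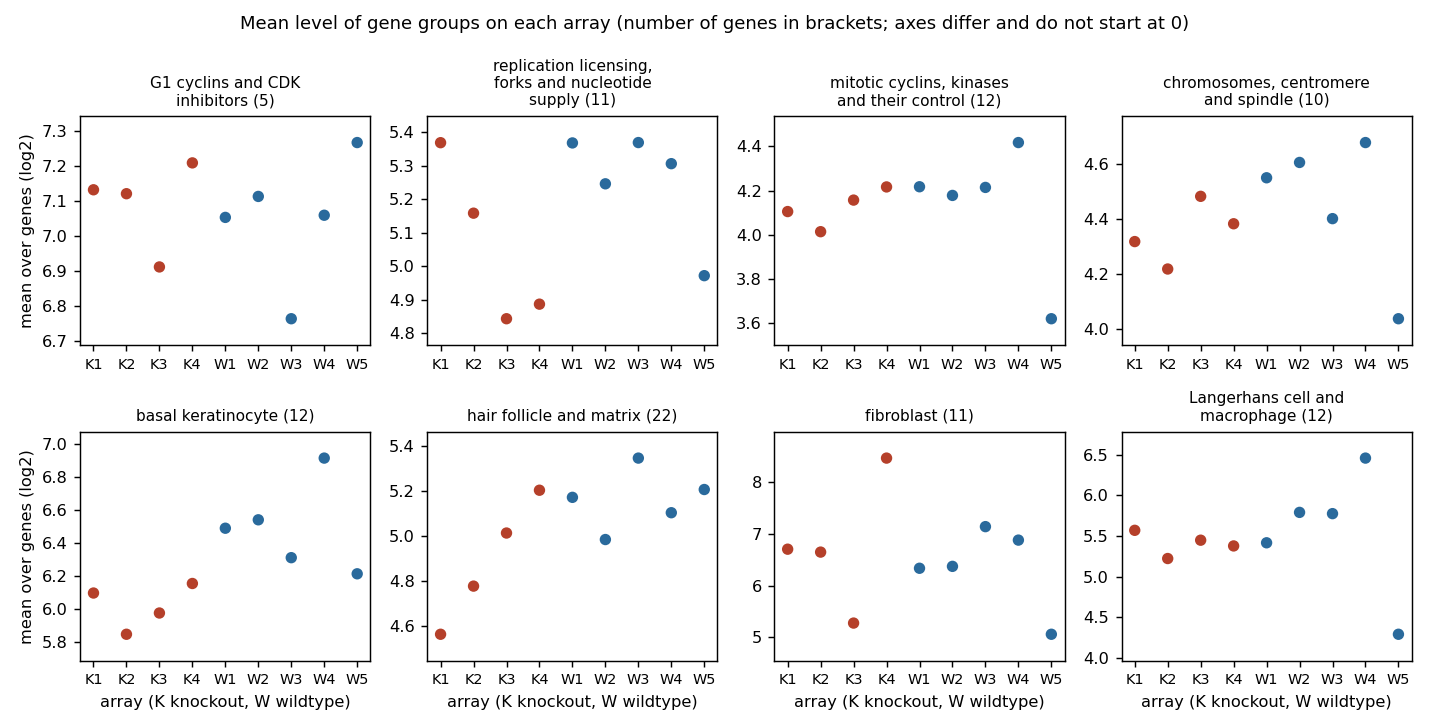
Mean log2 level on each array for the 4 roles of the cell cycle genes (top) and for 4 lists of cell type markers (bottom), with knockout arrays in red and wildtype arrays in blue. Mitotic genes are lowest on wildtype array 5, at 3.62, as are the Langerhans cell and macrophage markers, at 4.29, while basal keratinocyte markers reach at most 6.15 on the knockout arrays.

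Probe sets of the same gene did not always give the same sign. The 38 genes had 97 probe sets, and 29 genes had several. For 20 of these 29 the next brightest probe set had the same sign as the one used, and for 12 all probe sets did. Among the 12 were Cdkn1a, Ccnd2, Mcm4, Mcm7, Hmgb2 and Kif11. Bub1b, Top2a and Mcm3 each had a probe set on the other side of 0, at 0.46, 0.28 and 0.31. With p-values adjusted over all probe sets, 1 of the 97 passed in limma, the one of Hmgb2.

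**Figure D5:**
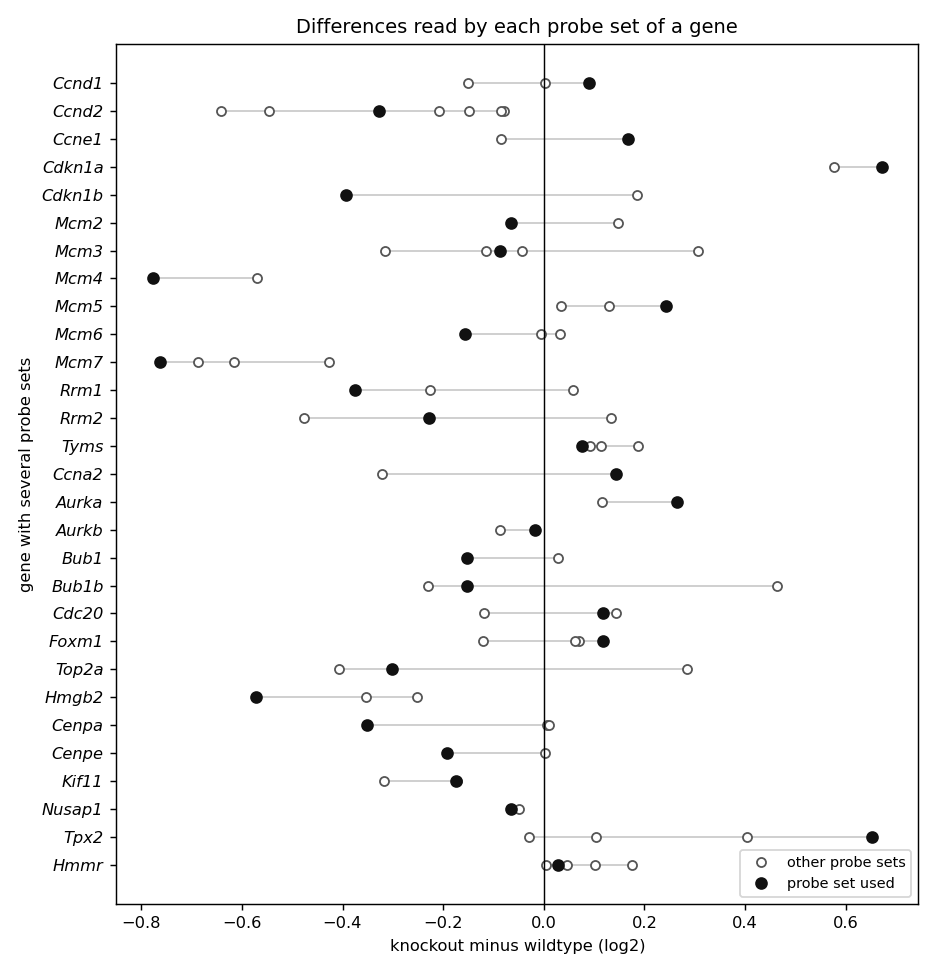
Knockout minus wildtype in log2 units for every probe set of the 29 genes that have several, with the probe set used filled and the others open. All probe sets of Cdkn1a lie above 0 and all of Mcm4, Mcm7 and Hmgb2 below it, while those of Bub1b, Mcm3 and Top2a lie on both sides.

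The lists of other cell cycle genes held no call. Of 45 other replication genes, 28 G1 and S phase control genes, 76 mitosis genes and 6 CDK inhibitors, 0 passed in limma. An unadjusted p under 0.05 was found for 5, 5, 8 and 0 of them. These are 11.1%, 17.9%, 10.5% and 0%, against 17.8% of all genes. The list medians were 0.02, -0.21, -0.01 and 0.02. Among the G1 and S phase genes 20 of 28 differences were negative, led by Ccnd3, encoding cyclin D3, at -0.64 (limma adjusted p of 0.198), and by Rbl1, the pocket protein p107, at -0.59 (0.372). The largest differences among replication genes were -0.60 for Rpa3, of the single-strand binding complex, and -0.53 for Orc6, of the origin recognition complex. Hmgb3, a relative of Hmgb2 on the X chromosome, read 4.84, 4.23, 4.62 and 3.61 in knockout and 4.96, 5.19, 5.38, 5.20 and 5.27 in wildtype. Its groups did not overlap, and its difference of -0.88 had a limma adjusted p of 0.0888. Lbr, the lamin B receptor, differed by -0.77 (0.242). Cdkn1c and Cdkn2b differed by 0.57 and -0.31.

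Cdkn1a is a known target of p53, and 22 other p53 targets were measured. Of these, 2 rose and 1 fell in limma, or 13.6% against 1.24% of all genes. The groups did not overlap for 7 of the 22, or 31.8%, against 8.28% of all genes, and the list median was 0.00. The list was chosen with earlier results of these data known, so these shares are a description and test nothing about p53. Of the 22, 17 had a mean of at least 5, against 7184 of all 18193 genes. Btg2, an antiproliferative immediate early gene, rose by 2.01 from values of 7.58 to 7.92 in wildtype to 9.55 to 9.86 in knockout, with a limma adjusted p of 6.97e-05. Plk2, another immediate early gene, rose by 1.48 with a limma adjusted p of 0.0380. It did not pass with the Xist level in the model, with arrays centred on the median or with the replicate number in the model. Nor did it pass without knockout array 1, 2 or 4 or without any of wildtype arrays 1 to 4. Trp53inp1, a p53-induced stress gene, fell by 1.26 with a limma adjusted p of 0.0126. It did not pass with the Xist level in the model, where Btg2 alone of the list did, or with the probe sets of a gene averaged. Mdm2, the ubiquitin ligase of p53, differed by 0.33 (-0.31 to 0.97), Ccng1 by -0.71 (-1.33 to -0.10) and Sesn1 by -0.91 (-1.35 to -0.47), with limma adjusted p values of 0.565, 0.225 and 0.0566. The largest difference in size of the list was -2.41, for Ddit4, with a limma adjusted p of 0.0719. Without wildtype array 5 it was -1.93, with a limma adjusted p of 0.0377. Targets thus lay on both sides of 0.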

How the data were processed

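The authors deposited 1 table of log2 values per probe set for 9 arrays. Per the submitters' processing notes affy was used, with settings not given in the sources used here. Values between 1.43 and 14.46 fit a log2 scale. Of 45037 probe sets 34945 named 1 gene in the platform annotation, and symbols were updated through the GRCm38.p6 gene table for 34741 of them. The brightest probe set stood for each gene. At most 124 probe sets had identical values on any 2 arrays of a group.

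All 18193 genes were fitted with limma 3.58.1 in R 4.3.3, with genotype as the only term, and p-values were adjusted by Benjamini-Hochberg over all genes, with a threshold of 0.05. Intervals are 95% and unadjusted. The code was tested on simulated data. The members and lists were chosen with earlier results of these data known. Values on every array are given for members that passed and, in each role, for the 3 largest differences and the highest mean. Those of Cdk1, Mki67, Hmgb3 and the second Cdkn1a probe set were added after they were seen, as were Mdm2, Ccng1, Sesn1 and Ddit4, and the markers named singly. From the wider lists, up to 5 genes past the threshold per direction are named, or the 2 largest differences. Promoter matches were counted per gene. Alternatives were other choices of probe set, level filter, normalization, variance model, Xist covariate, replicate block, a threshold of 0.1 and each array left out in turn.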

Additional observations from a re-analysis of the deposited data

Results flagged for a closer look

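Each of the 38 genes was examined in the knockout and in the wildtype arrays, which gave 76 sets of values. In 6 of them, or 7.89%, 1 array lay far from the rest of its set, where chance gives about 5%. Distance was judged by the gap to the next value over the range of the set. The sets share the same arrays and are not independent, so the 7.89% was not tested against that rate. Of the 6 values, 3 were on wildtype array 5. Cdkn1a read 11.32 there, and 10.55 to 10.66 on the other wildtype arrays. Mcm7 read 5.88 on it against 6.86 to 6.97, and Birc5 3.08 against 4.13 to 4.51. On wildtype array 3 Ccnd2 was low, at 6.85 against 7.46 to 7.61, and Pcna was high, at 8.36 against 7.77 to 7.93. On wildtype array 2 Hmgb2 read 8.52 against 8.32 to 8.37. None of the 38 genes had such a value on a knockout array.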

How the results depend on the processing

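The number of genes past the threshold was 226, and it was 9 with the Xist covariate, 119 with the replicate block, 571 at an adjusted p of 0.1 and 62 to 281 when 1 array was left out, with 62 and 87 without knockout array 2 or 4 and 83, 71 and 89 without wildtype array 1, 2 or 4. Among the 38 cell cycle members the count was 1. It was 0 with probe sets of a gene averaged, without the less specific probe sets, with quantile normalization and with the Xist covariate, where 4, 4, 5 and 6 members had an unadjusted limma p under 0.05. It was 2 at an adjusted p of 0.1, with Cdkn1a added, and 0 to 3 when 1 array was left out, with 3 without wildtype array 5. The limma adjusted p of Hmgb2 was 0.0648, 0.379, 0.0731 and 0.517 in the first 4 of these, 0.101 without knockout array 2, 0.0587 without knockout array 3, 0.0724 without knockout array 4, and 0.0670 to 0.0968 when 1 of wildtype arrays 1 to 4 was left out. The count for other cell cycle and p53 target genes, 3, was 1 with the Xist covariate, 9 at an adjusted p of 0.1 and 2 to 4 when 1 array was left out. The members' median, -0.10, was -0.26 over the 16 with a mean of at least 5, where that of all such genes was -0.12, and -0.17 to -0.02 when 1 array was left out.

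Same-numbered arrays did not deviate together, with correlations of -0.21, -0.10, -0.21 and 0.18 for numbers 1 to 4, so the numbers were not taken as pairs. With the replicate block Cdkn1a passed in limma, at 0.81 and an adjusted p of 0.0441, and Hmgb2 did not, at -0.59 and 0.132. Of 619 values of single members under the alternatives, 0 changed sign where either value passed, and 35 did where neither passed, in 16 of the 38 genes. Hmmr did so most often, in 7 fits. Of 13 members with a difference of at least 0.3 in size, Cenpa changed sign, under 1 alternative. Low signal limits what the dim members can show.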
